A study of Mus musculus with 2 samples.

Results

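The genes described here carry fatty acids into heart cells, store them as triglyceride and burn them in mitochondria. They are 34 named genes of the 55357 listed in the deposited matrices, chosen by symbol for their known role. The choice was made with earlier results of these data known. They were read as unique molecular identifiers (UMIs, tags that mark single mRNA molecules) in droplet-based single-cell RNA sequencing of the mouse heart. There was 1 Sham library and 1 TAC library, from mice whose aortic arch was ligated (transverse aortic constriction) to raise the pressure load on the left ventricle. Both came from C57BL/6 mice and each pooled the dissociated cells of 3 to 5 hearts, so there was no replicate library. The TAC mice were males operated on at 8 weeks of age and studied after 6 weeks. By the labels, Sham surgery left out the constriction, and neither age nor sex is given for these mice, which the design text calls uninjured.

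The adult heart muscle obtains most of its energy from fatty acids. Lipoprotein lipase frees them from circulating triglyceride at the capillary wall, endothelial cells and cardiomyocytes take them up through membrane carriers, and acyl-CoA synthetases activate them. The carnitine shuttle moves the activated fatty acids into mitochondria, where the enzymes of beta-oxidation shorten them step by step, and the surplus is stored in lipid droplets and released again by lipases. The nuclear receptors PPAR alpha and the estrogen-related receptors (ERRs), with their coactivator PGC-1 alpha, drive transcription of many of these genes. A shift away from fatty acid oxidation is a well-known feature of the overloaded heart.

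The matrices held 28146691 UMIs in 9935 Sham barcodes and 29108986 UMIs in 9932 TAC barcodes, and 32 barcode sequences occurred in both. After filtering, 9475 Sham and 9452 TAC cells remained. Of these, 2508 and 2398 lay in clusters named cardiomyocytes from marker genes, with median depths of 4510 and 4916 UMIs. The stress genes of the overloaded myocardium did not all follow the label TAC. Among 5 such genes in cardiomyocytes, 0 were at least 1.5-fold higher in the TAC library and 1 was lower. Myh7, the beta myosin heavy chain, was above its Sham level at 1.36 [1.32, 1.396] times, and Ankrd1 stood at 1.01 [0.968, 1.05], an interval that included 1. The natriuretic peptide genes Nppa and Nppb stood at 0.753 and 0.773 times the Sham level, and Acta1, the skeletal muscle actin that is re-expressed in overload, stood at 0.355. "TAC" below therefore means the library labelled TAC. Mitochondrially encoded transcripts made up 0.260% of the cardiomyocyte UMIs in Sham and 0.145% in TAC, and the nuclear RNA Malat1 made up 13.1% and 16.2%. The part of these differences in the results was not tested.

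All levels are given as CPM, the UMIs of a gene per 1000000 UMIs of the same cell type and library. A level is compared for 1 gene between cell types or libraries, never between genes, because the capture of a transcript differs from gene to gene. A ratio is the TAC level over the Sham level, with an exact 95% interval in square brackets that covers counting error only. A gene was called higher or lower past a fold of 1.5 where both libraries together held at least 50 of its UMIs. With 1 library a group there was no test, no p-value and no measure of the spread between animals, so the effect of the operation cannot be told apart from a difference between these libraries.

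In cardiomyocytes all 34 genes reached 50 UMIs, and 27 of them had a ratio below 1. Of the 34, 6 were called lower and 0 higher in TAC. Over all 13303 genes that reached the minimum, 6.69% were called lower and 12.9% higher. The median log2 ratio was -0.23 over the 34 genes and 0.03 over all genes. The interval lay below 1 for 21 genes, above 1 for 4 and across 1 for 9. Together the genes took 9392 CPM in Sham cardiomyocytes and 8236 in TAC cardiomyocytes. In order of ratio the lower genes were Pnpla2, Pdk4, Dgat2, Slc27a1, Ucp3 and Plin5. Of these genes 3 serve the triglyceride store (Pnpla2, Dgat2 and Plin5), 2 serve fuel choice and overflow (Pdk4 and Ucp3), and Slc27a1 is a carrier of uptake. Just outside the threshold were Esrra at 0.669 and Mlycd at 0.679. The side of 1 was not firm for 8 genes near it (Acadl, Acot2, Acsl1, Angptl4, Esrrg, Hadha, Hadhb and Mgll), which crossed it under at least 1 other scaling or choice of cells.

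**Figure D1:**
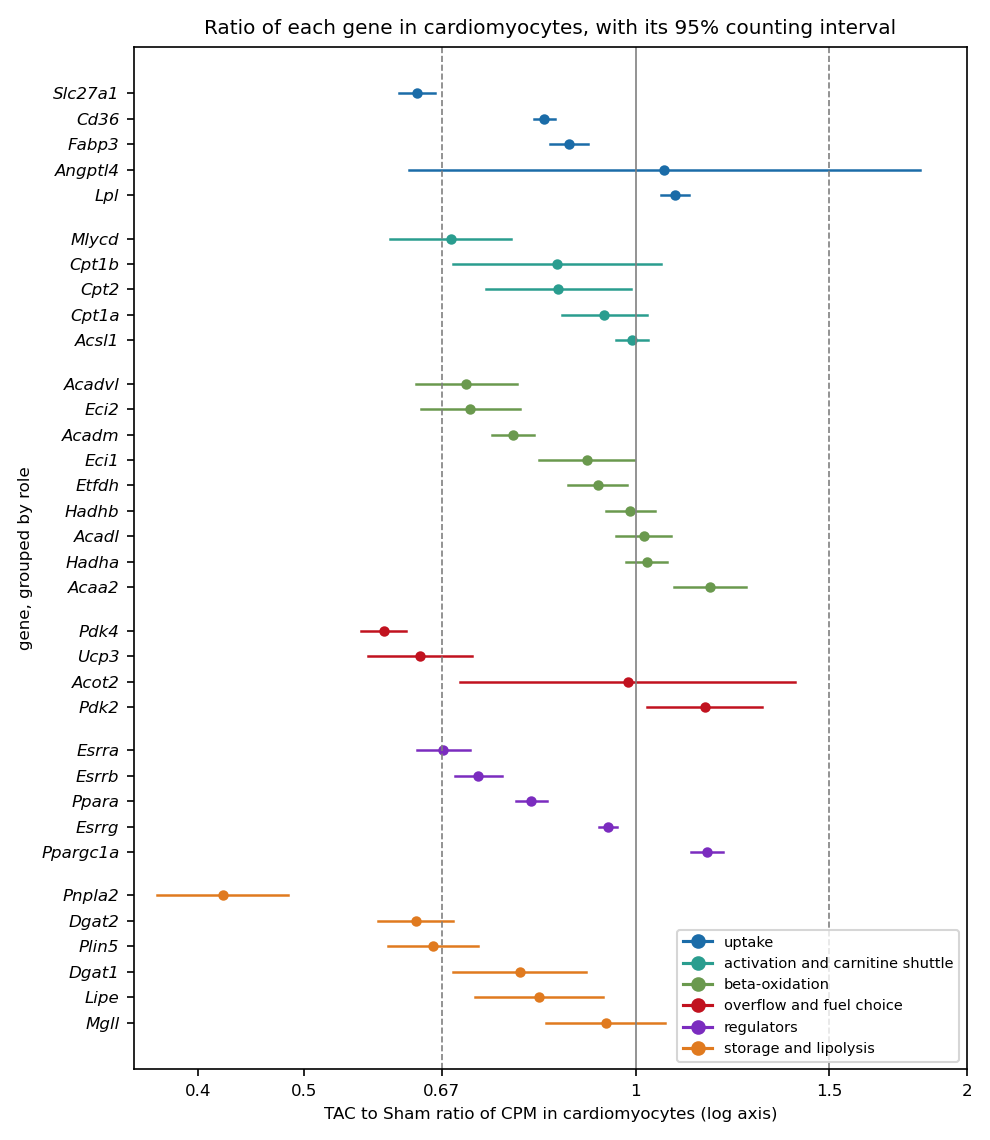
Ratio of the TAC to the Sham level of each of the 34 genes in cardiomyocytes, on a log axis and grouped by role, with points for the ratio, bars for the 95% counting interval and dashed lines at 1.5-fold. The points run from 0.422 for Pnpla2 to 1.17 for Acaa2, and 6 lie left of the lower dashed line.

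Pnpla2 had the lowest ratio. It encodes adipose triglyceride lipase, which takes the first fatty acid off stored triglyceride. In cardiomyocytes 731 UMIs in Sham and 300 in TAC gave 54.2 and 22.9 CPM, a ratio of 0.422 [0.367, 0.483]. Slc27a1, which encodes fatty acid transport protein 1, stood at 518 CPM in Sham and 328 in TAC, a ratio of 0.633 [0.609, 0.658]. These were the 2 genes called lower in all 5 cell types large enough to compare, and both have a RefSeq promoter entry (build GRCm38.p6) whose 250 bases before the start overlap no exon of GENCODE M21. The 2 stretches are shown because the ratio was low in each of the 5 cell types. Outside cardiomyocytes, the levels of Slc27a1, and those of Pnpla2 in pericytes, cannot be told apart from free cardiomyocyte RNA, as described below. Pdk4 and the gene pair Hadha and Hadhb are shown beside them, Pdk4 as the called gene of fuel choice and the pair because the 2 genes start close together on opposite strands. For these the printed stretch is the longest part of the 250 bases that overlaps no exon. Capitals mark matches to the motifs searched below.
Pnpla2, chr7:141454938-141455187, plus strand: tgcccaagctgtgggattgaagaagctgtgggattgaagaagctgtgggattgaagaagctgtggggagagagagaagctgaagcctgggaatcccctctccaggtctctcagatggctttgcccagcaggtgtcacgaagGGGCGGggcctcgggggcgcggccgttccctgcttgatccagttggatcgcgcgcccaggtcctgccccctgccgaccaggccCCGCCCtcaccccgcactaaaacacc
Slc27a1, chr8:71568621-71568870, plus strand: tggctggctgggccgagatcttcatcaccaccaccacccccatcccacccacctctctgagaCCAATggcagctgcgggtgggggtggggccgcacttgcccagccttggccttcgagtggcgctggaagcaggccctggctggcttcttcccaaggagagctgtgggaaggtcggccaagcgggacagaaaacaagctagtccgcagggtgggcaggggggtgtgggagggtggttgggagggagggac
Pdk4, chr6:5496310-5496528, minus strand: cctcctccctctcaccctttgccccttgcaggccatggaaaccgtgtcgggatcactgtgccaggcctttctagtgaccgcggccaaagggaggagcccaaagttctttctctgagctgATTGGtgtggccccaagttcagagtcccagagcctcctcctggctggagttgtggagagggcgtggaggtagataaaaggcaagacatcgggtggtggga
Hadha and Hadhb, chr5:30155163-30155247, written on the strand of Hadhb: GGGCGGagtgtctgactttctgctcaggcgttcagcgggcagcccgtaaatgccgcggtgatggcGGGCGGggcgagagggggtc

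The motifs were searched on both strands of the 250 bases before the start of the 28 genes with an entry. Lpl, Angptl4, Cpt1b, Acaa2, Dgat1 and Dgat2 had none. The start is that of the RefSeq entry, and only 10 of the 28 windows overlapped no exon of GENCODE M21. The counts therefore include sequence annotated as exon. AAGGTCA, a sequence that ERRs and related nuclear receptors can bind, occurred before Acadm alone, and in 4.08% of all 32851 promoters. The GC box GGGCGG occurred before 14 of the 28 genes and in 32.7% of all promoters, and the CCAAT box CCAAT before 10 and in 33.8%. The forkhead motif GTAAACA occurred before Mgll alone (3.17% of all promoters), TATAAA before Esrrg alone (12.4%), and the E box CACGTG before Pdk2, Lipe and Mgll (6.02%). No motif was common to the 5 genes called lower that have an entry: Pnpla2 held GGGCGG only, Slc27a1 and Pdk4 held CCAAT only, Plin5 held both and Ucp3 held none of the 6. A match is a description of the letters and not evidence of binding.

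Of the genes of uptake, 1 of 5 was called lower and 0 higher. Cd36, the fatty acid translocase of the plasma membrane, had 1388 CPM in Sham cardiomyocytes and 1147 in TAC cardiomyocytes, a ratio of 0.826 [0.808, 0.844]. Fabp3, the heart fatty acid binding protein that carries fatty acids through the cytosol, had 395 and 343, a ratio of 0.869 [0.835, 0.905]. Both lay below 1 beyond counting error and inside the 1.5-fold bounds. Lpl, the lipoprotein lipase that cardiomyocytes make and hand over to the capillary wall, lay on the other side of 1, with 637 and 691 CPM and a ratio of 1.09 [1.05, 1.12]. Angptl4, a secreted inhibitor of that lipase, was sparse, with 30 UMIs in Sham and 31 in TAC, and its ratio of 1.06 [0.622, 1.82] does not separate the libraries.

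The 5 genes of activation and the carnitine shuttle all had ratios below 1, and 0 were called. Acsl1, the main long-chain acyl-CoA synthetase of the heart, had 515 and 511 CPM, a ratio of 0.992 [0.959, 1.03]. Cpt1b, the muscle form of the carnitine palmitoyltransferase that gates entry into mitochondria, had 14.1 and 12.0 CPM, and its interval of [0.683, 1.05] spanned 1, as did that of the liver form Cpt1a, with 76.4 and 71.6. Cpt2, which reverses the reaction on the inner membrane, had 28.5 and 24.2 and a ratio of 0.851 [0.731, 0.990]. The interval of Cpt2 ended just below 1. Acsl1, with 6940 and 6700 UMIs, was close to equal in the libraries, with a narrow interval. For Cpt1a and the sparser Cpt1b, with 190 and 157 UMIs, a difference was not detectable at this depth. Mlycd stood apart from the other genes of this role. It degrades malonyl-CoA, the inhibitor of the entry step, and had 46.1 CPM in Sham and 31.3 in TAC, a ratio of 0.679 [0.598, 0.770].

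Among the 9 genes of beta-oxidation 0 were called, 6 had ratios below 1 and 3 above. The acyl-CoA dehydrogenases, which catalyse the first step of each round, differed from one another. Acadvl, for very long chains, had 64.8 CPM in Sham and 45.5 in TAC, a ratio of 0.702 [0.631, 0.780]. Acadm, for medium chains, had 345 and 267, a ratio of 0.774 [0.740, 0.809]. Acadl, for long chains, had 175 and 178, a ratio of 1.02 [0.961, 1.08], and its interval did not overlap those of the other 2. The subunits of the trifunctional protein, which carries out the following steps for long chains, were both close to 1, Hadha with 313 and 321 CPM (1.02 [0.981, 1.07]) and Hadhb with 220 and 217 (0.989 [0.939, 1.04]). These are the genes of the shared stretch printed above, and their annotated ends lie 85 bases apart. Acaa2, the thiolase that closes each round, was the highest of the 34 in ratio, with 94.4 and 110 CPM and 1.17 [1.08, 1.26].

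The enoyl-CoA isomerases, which prepare unsaturated fatty acids for oxidation, differed from each other. Eci1 had 62.8 and 56.7 CPM, a ratio of 0.903 [0.817, 0.997]. Eci2 had 66.9 and 47.3, a ratio of 0.707 [0.638, 0.784], and the intervals did not overlap. Etfdh, which passes electrons from the dehydrogenases to the respiratory chain, had 160 and 148, a ratio of 0.924 [0.869, 0.983].

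Of the 4 genes of fuel choice and overflow 2 were called lower. Pdk4, a kinase that switches off pyruvate dehydrogenase and so spares glucose when fatty acids are burned, had 348 CPM in Sham cardiomyocytes and 205 in TAC cardiomyocytes, a ratio of 0.590 [0.563, 0.619]. Its relative Pdk2 lay the other way, with 38.7 and 44.7 CPM and a ratio of 1.16 [1.03, 1.30]. Ucp3, a mitochondrial carrier that accompanies high fatty acid supply, had 65.1 and 41.5, a ratio of 0.637 [0.572, 0.710]. Acot2, which releases fatty acids from acyl-CoA inside mitochondria, had 70 and 67 UMIs in all, and its interval of [0.693, 1.39] allows a difference in either direction. Acot2 has a near-identical neighbour, Acot1, and how reads shared by both were assigned is not given in the sources used here.

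Of the 5 regulators 0 were called, 4 had ratios below 1 and 1 above. The 3 ERR genes formed a graded series. Esrra had 238 CPM in Sham and 159 in TAC (0.669 [0.633, 0.707]), Esrrb had 289 and 208 (0.719 [0.685, 0.756]), and Esrrg had 1824 and 1721 (0.944 [0.927, 0.961]). The interval of Esrrg did not overlap those of Esrra and Esrrb, and the last 2 overlapped each other. Ppara, which encodes PPAR alpha, had 609 and 489 CPM, a ratio of 0.804 [0.778, 0.831]. Ppargc1a, which encodes PGC-1 alpha, was above 1, with 480 and 558 CPM and a ratio of 1.16 [1.12, 1.202]. The coactivator and the receptors it binds therefore lay on opposite sides of 1, except that Esrrg stood at 1.01 with cells typed by their own markers.

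The genes of storage and lipolysis had the lowest median of the 6 roles, at -0.48 on the log2 scale, and 3 of 6 were called lower. All 6 were also in the quintile of all genes with the highest GC content, which is read below and had 13.1% of its genes called lower. Relative to that quintile the median was -0.34 and Pnpla2 alone stayed past the fold. Without that adjustment uptake stood at -0.20, activation and the carnitine shuttle at -0.23, beta-oxidation at -0.11, fuel choice and overflow at -0.34 and the regulators at -0.32. With each gene set against its own GC quintile, these medians were -0.17, -0.21, -0.14, -0.31 and -0.29 in the same order. Dgat2, which with Dgat1 adds the last fatty acid to triglyceride, had 122 and 76.9 CPM, a ratio of 0.631 [0.583, 0.683]. Dgat1 had 35.5 and 27.8, a ratio of 0.785 [0.683, 0.901]. Plin5, the perilipin that tethers lipid droplets to mitochondria, had 83.8 and 54.8 CPM, a ratio of 0.654 [0.595, 0.719]. Of the lipases along the path of triglyceride breakdown, the first stood apart. Pnpla2, the first enzyme, had the ratio of 0.422 given above, Lipe, the hormone-sensitive lipase that follows it, had 0.817 [0.714, 0.933], and Mgll, the monoglyceride lipase at the end, had 0.939 [0.829, 1.06]. The last 2 intervals overlapped each other and not that of Pnpla2.

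Across cell types the 34 genes were mainly genes of cardiomyocytes, which held 83.1% of their UMIs in Sham (Clopper-Pearson 95% interval 83.0% to 83.3%) and 80.7% in TAC (80.5% to 80.9%). Cardiomyocytes held 52.0% and 49.2% of all UMIs. In the comparison of 5 types with at least 500 cells each, the level was highest in cardiomyocytes for 28 of the 34 genes in Sham and 29 in TAC. In Sham the receptor genes Esrrb, Ppara and Esrrg exceeded the next type 15.95, 15.8 and 13.0 times. Cpt1b, with 190 UMIs in Sham cardiomyocytes, had 1 UMI in macrophages, its next type. Pnpla2 was the least particular of the genes that were highest in cardiomyocytes in both libraries, with 54.2 CPM in Sham cardiomyocytes and 47.4 in Sham endothelial cells, and with 22.9 and 22.0 in TAC.

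**Figure D2:**
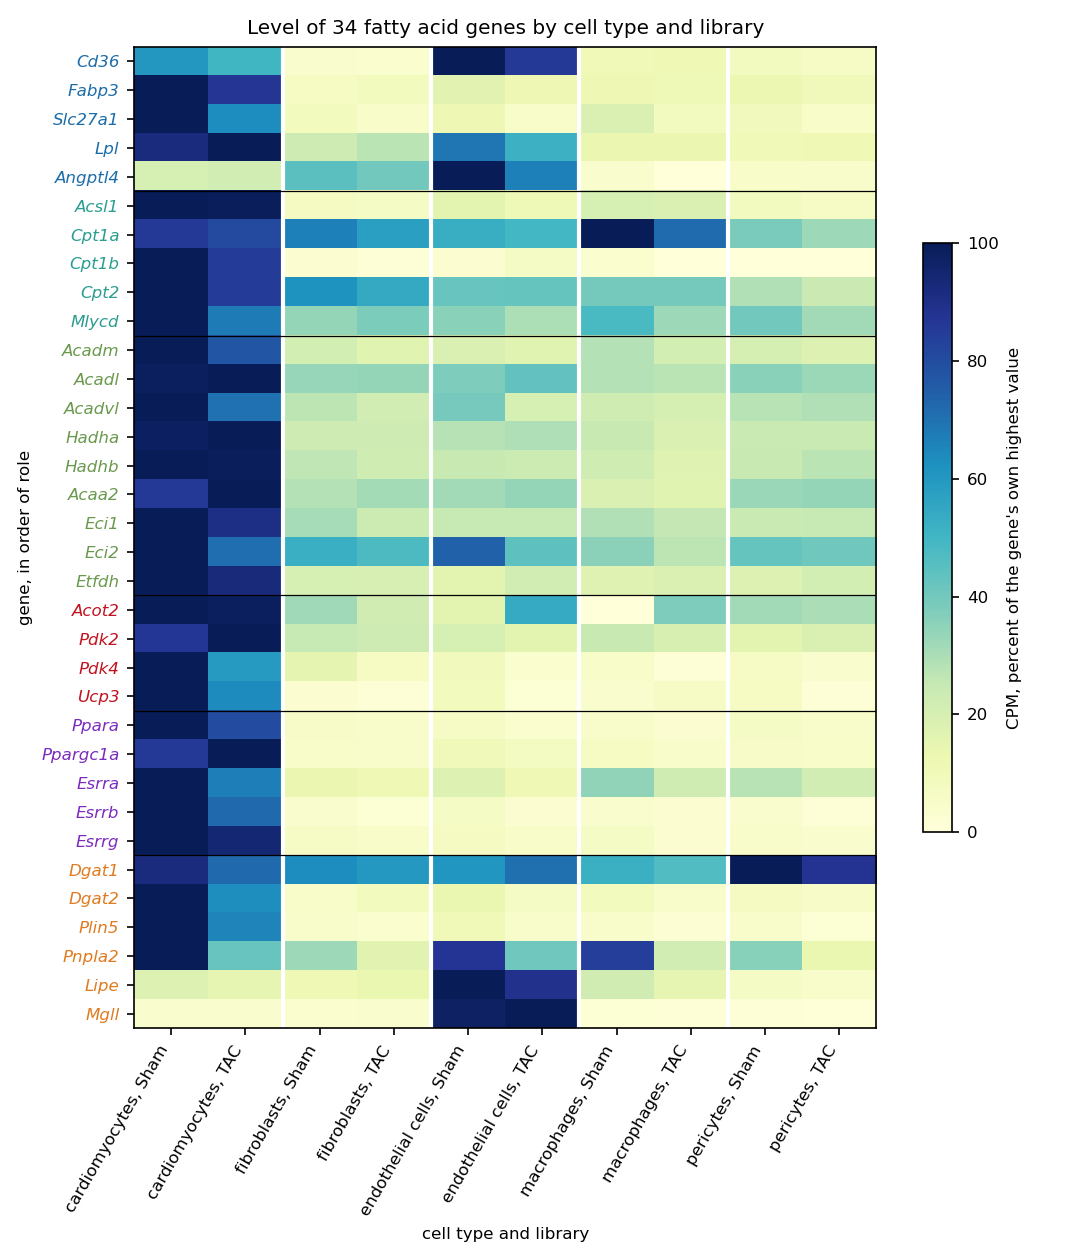
Level of each gene (rows, coloured and ordered by role) in 5 cell types of both libraries (columns), as a percentage of the gene's own highest value in CPM, so that colours compare along a row only. The cardiomyocyte columns are dark for most rows, while Cd36, Angptl4, Lipe and Mgll are darkest in endothelial cells and Dgat1 in pericytes.

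The exceptions were few, and in part they were highest in endothelial cells. Mgll had 923 CPM in Sham endothelial cells against 39.8 in Sham cardiomyocytes, and 948 against 37.4 in TAC. Lipe had 205 in Sham and 182 in TAC endothelial cells, 4.53 and 5.99 times the next type. Both lipases were thus highest in endothelial cells, but Lipe was not confined to them, since cardiomyocytes held 39.3% of its UMIs in Sham. Cd36 had 2303 and 1983 CPM in endothelial cells, 1.66 and 1.73 times its level in cardiomyocytes, although cardiomyocytes, which gave far more UMIs, held 72.4% and 65.7% of its UMIs. Angptl4 was also highest in endothelial cells, from 27 and 24 UMIs. Dgat1 was highest in pericytes, with 38.6 and 33.8 CPM, close to the 35.5 and 27.8 of cardiomyocytes. Cpt1a was highest in macrophages in Sham (88.7 CPM against 76.4 in cardiomyocytes) and in cardiomyocytes in TAC (71.6 against 63.6).

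Endothelial cells were not uniform in these genes. In Sham, Cd36 had 2891 CPM in the largest endothelial cluster (1272 cells, led by Ablim3 and Btnl9) and 319 in a cluster of 194 cells led by Tmem108 and Nrg1. Mgll had 1189 and 111 CPM in these clusters, Lipe 264 and 35.1, and Lpl 631 and 84.8. In TAC the largest cluster (1796 cells, led by Ccdc85a and Adgrl4) and the cluster of 304 cells led by Tmem108 and Nrg1 gave 2540 and 233 for Cd36, 1146 and 128 for Mgll, 226 and 34.6 for Lipe, and 442 and 78.1 for Lpl. Between these clusters the 4 genes therefore had the same order of levels in both libraries. A further cluster led by Mannr differed for Mgll. It had 813 CPM in Sham (58 cells), below the largest cluster, and 1330 in TAC (151 cells), above it. Cd36, Lipe and Lpl were lower there than in the largest cluster in both libraries. The 34 genes and the wider list read below were left out of the clustering, but genes that vary with them were not, so the values are a description.

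RNA released from broken cardiomyocytes can enter droplets that hold other cells. As a measure of it, 7 contractile genes of cardiomyocytes were read in the other cell types. In Sham fibroblasts they lay between 3.81% (Myh6) and 25.4% (Myl3) of their cardiomyocyte level, and in Sham endothelial cells between 7.14% and 47.0%. In both libraries Dgat1 was above this range in all 4 other types. Also in both libraries, Cpt1a, Pnpla2 and Lipe were above it in fibroblasts, endothelial cells and macrophages, Mgll, Angptl4 and Eci2 in fibroblasts and endothelial cells, Cd36 and Lpl in endothelial cells, and Cpt2, Mlycd, Acadl and Acaa2 in fibroblasts. In all 19 of the 34 genes were above it in no type of either library, among them Slc27a1, Pdk4, Ucp3, Dgat2, Plin5, Fabp3, Acsl1, Hadha, Hadhb, Ppara, Esrrb and Esrrg, so their UMIs outside cardiomyocytes cannot be told apart from free cardiomyocyte RNA. Slc27a1, for example, stood at 8.35% of its cardiomyocyte level in Sham fibroblasts and Pdk4 at 15.1%.

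Outside cardiomyocytes the ratio of TAC to Sham was again mostly below 1. In endothelial cells 29 of the 34 genes reached 50 UMIs, and 10 were called lower and 0 higher, against 6.00% and 9.09% of all genes. The median log2 ratio was -0.42 there, against 0.03 over all genes. In macrophages 6 of 25 were called lower and 0 higher (9.05% and 8.95% of all genes), in fibroblasts 4 of 30 lower and 1 higher (4.32% and 10.6%), and in pericytes 3 of 23 lower and 0 higher (6.56% and 7.31%). Slc27a1 and Pnpla2 were called lower in 5 of 5 types and Pdk4 in 4 of the 4 in which it reached 50 UMIs. In endothelial cells the other called genes were Acadvl, Eci2, Ppara, Esrra, Esrrb, Esrrg and Dgat2, and in macrophages they were Ppara, Esrra, Esrrg and Mgll. Esrrb was the remaining lower gene in fibroblasts. Few of these calls concern levels above the range of the contractile genes. In both libraries Pnpla2 and Eci2 were above it among the 10 called in endothelial cells, Pnpla2 among the 4 in fibroblasts and the 6 in macrophages, and 0 of the 3 in pericytes. Esrra in macrophages was above it in 1 library. The other calls outside cardiomyocytes were not above it, so by this measure they cannot be told apart from cardiomyocyte RNA read again. Mgll in macrophages is 1 of them, but Mgll was highest in endothelial cells, at 923 CPM in Sham. Free RNA of endothelial cells was not measured.

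Pnpla2 kept a low ratio in each cell type. It had 17.5 and 8.86 CPM in fibroblasts (0.506 [0.348, 0.727]), 47.4 and 22.0 in endothelial cells (0.464 [0.340, 0.629]), 45.7 and 11.7 in macrophages (0.256 [0.164, 0.388]) and 19.6 and 7.28 in pericytes (0.372 [0.185, 0.707]). In each of the first 3 of these types its level was above the range of the contractile genes in both libraries. Slc27a1 had 43.3 and 26.8 CPM in fibroblasts, 59.3 and 24.8 in endothelial cells, 96.9 and 42.1 in macrophages and 46.7 and 24.5 in pericytes, with ratios of 0.619, 0.417, 0.435 and 0.523. Pdk4 had 52.5 and 24.1 in fibroblasts (0.459) and 31.3 and 11.1 in endothelial cells (0.356). In pericytes it had 20.7 and 13.5, and its ratio of 0.655 [0.382, 1.11] passed the fold with an interval that included 1. In macrophages it had 40 UMIs in Sham and 8 in TAC, under the minimum for a call.

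**Figure D3:**
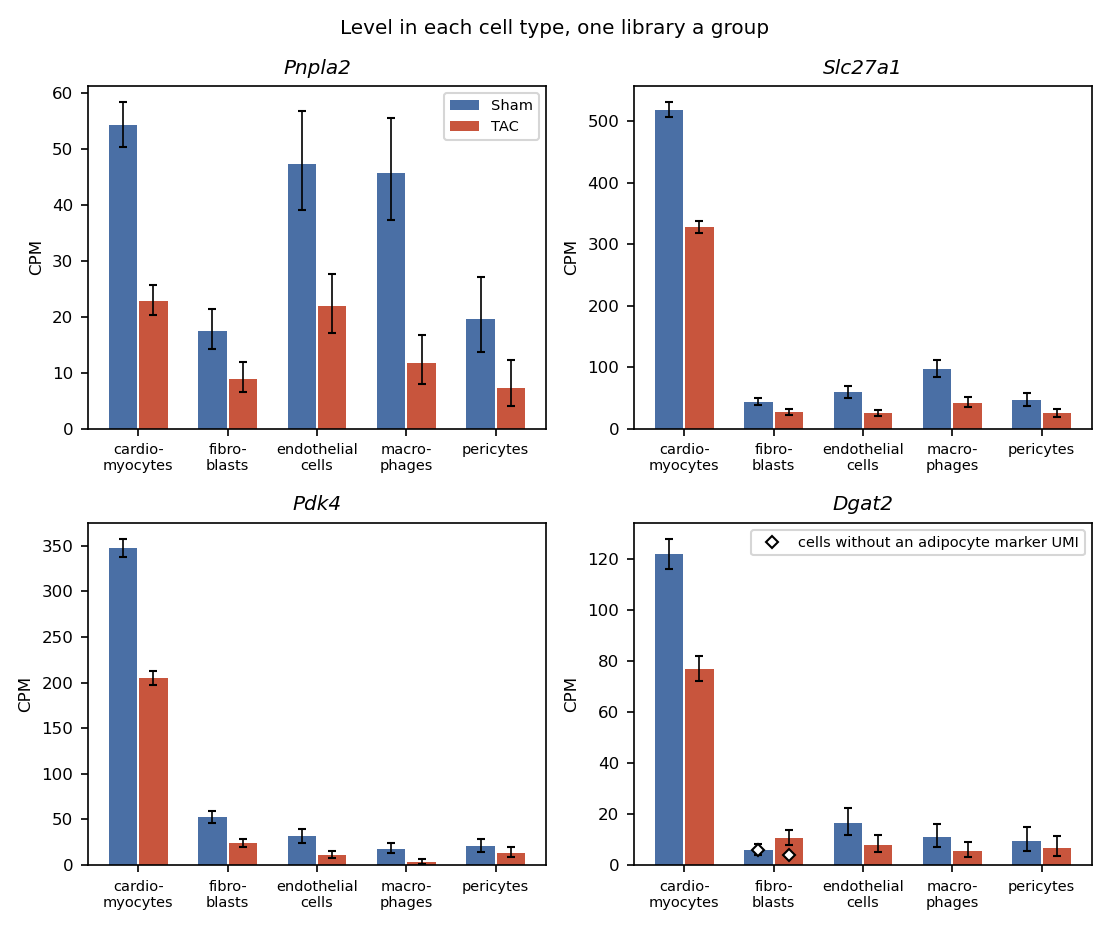
Level of Pnpla2, Slc27a1, Pdk4 and Dgat2 in CPM (bars, from 0) in 5 cell types of the Sham and TAC libraries, with exact Poisson 95% intervals as error bars and, for Dgat2, diamonds for fibroblasts without an adipocyte marker UMI. The TAC bar is the shorter of each pair except for Dgat2 in fibroblasts, where the diamonds are at 5.90 and 4.06.

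Dgat2 was the only one of the 34 genes called higher in any type. In fibroblasts it had 32 UMIs in Sham and 55 in TAC, or 5.90 and 10.6 CPM, a ratio of 1.80 [1.14, 2.87], while in endothelial cells it had 16.5 and 8.04, a ratio of 0.488 [0.286, 0.820]. The endothelial levels were 13.5% and 10.5% of those in cardiomyocytes, not above the range of the contractile genes. Neither library had a cluster of adipocytes, the main fat-storing cells. Yet the 6 adipocyte markers Adipoq, Plin1, Cidec, Lep, Retn and Adrb3 gave 79 UMIs in 2128 TAC fibroblasts and 3 in 2291 Sham fibroblasts. Of the 79 UMIs, 78 were in 5 cells. With the 3 Sham and 6 TAC cells that held any such UMI left out, Dgat2 had 32 UMIs in Sham and 21 in TAC, and its ratio was 0.689 [0.377, 1.23]. The higher value therefore rests on a few cells with adipocyte transcripts inside the fibroblast clusters. Without them the interval of Dgat2 included 1. Leaving out these cells changed the fibroblast count from 4 lower and 1 higher to 5 of 29 lower and 0 higher, against 4.40% and 10.5% of all genes. The added gene was Acsl1, which moved from 0.881 to 0.603 [0.477, 0.758]. Pnpla2 moved from 0.506 to 0.342, Slc27a1 from 0.619 to 0.527, Lipe from 1.22 to 1.02 and Mgll from 1.16 to 1.11.

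Cardiomyocytes themselves were compared in like clusters. When both libraries were clustered together, cardiomyocytes fell into 2 clusters that held cells of both. One, led by Ptgds and Ankrd1, held 1182 Sham and 557 TAC cells, and the other, led by Pdzrn4 and Gm12381, held 1327 and 1840. In the first cluster 12 of the 32 genes that reached 50 UMIs were called lower and 0 higher, against 11.6% and 11.3% of all genes. In the second 2 of 33 were called lower, Slc27a1 and Pnpla2, and 0 higher, against 5.29% and 12.1%. The median log2 ratio of the genes was -0.34 in the first and -0.25 in the second, and over all genes -0.03 and 0.03. The direction was therefore the same in both clusters, and the size differed.

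Pdk4 differed most plainly. In the cluster led by Ptgds and Ankrd1 it had 402 CPM in Sham and 150 in TAC, a ratio of 0.372 [0.332, 0.415], and in the cluster led by Pdzrn4 and Gm12381 it had 314 and 218, a ratio of 0.694 [0.656, 0.734]. Plin5 had 0.454 [0.365, 0.560] in the first and 0.755 [0.674, 0.844] in the second. Ppara had 0.656 [0.611, 0.703] and 0.863 [0.830, 0.897]. For these 3 genes the intervals of the clusters did not overlap. Pnpla2 had 0.369 and 0.494 and Slc27a1 0.565 and 0.637, and Ppargc1a stayed above 1 in both, at 1.18 and 1.11. Cells were assigned to clusters by their expression, so these values compare cells of like profile and are not a test.

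**Figure D4:**
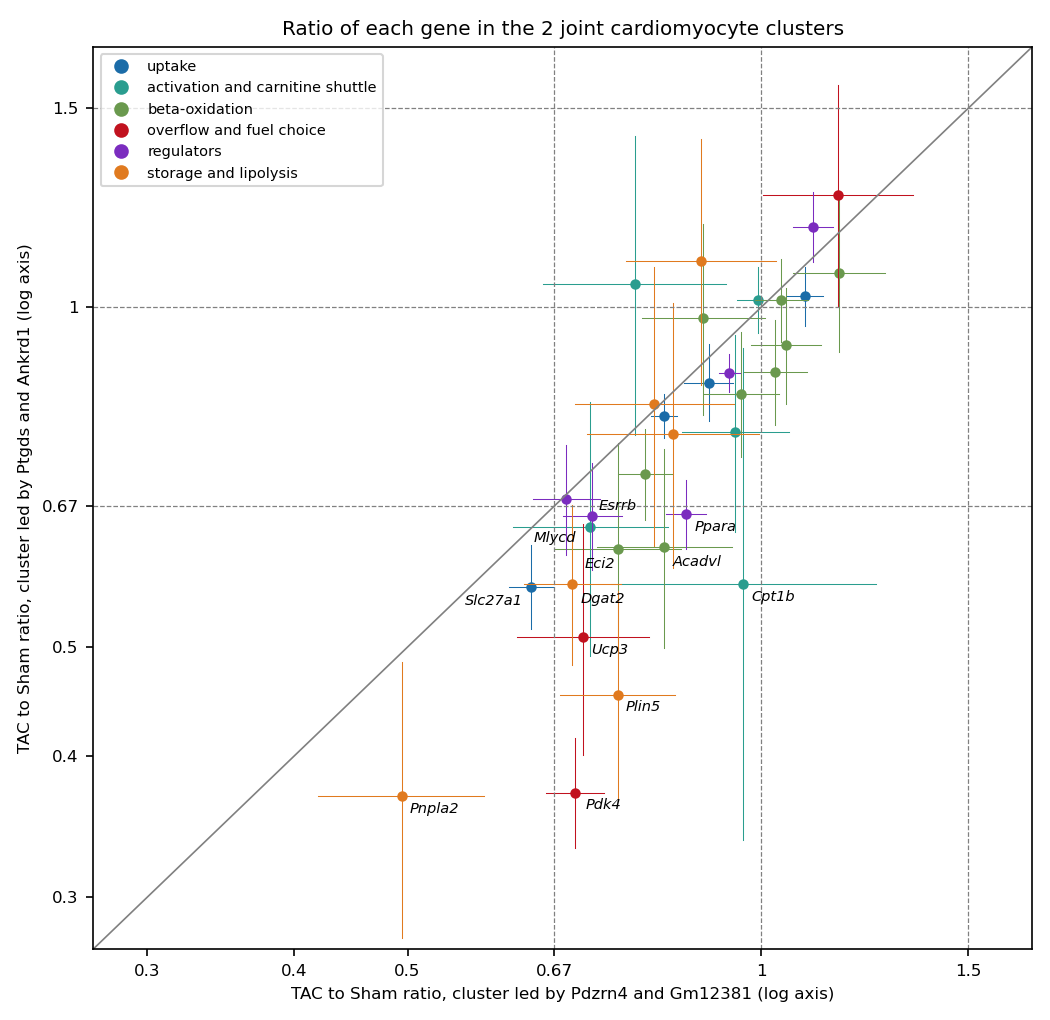
TAC to Sham ratio of each gene in the cardiomyocyte cluster led by Ptgds and Ankrd1 (vertical) against the cluster led by Pdzrn4 and Gm12381 (horizontal), on log axes, with 95% counting intervals as lines and equal ratios on the diagonal. Names are given for genes called lower in either cluster. Pdk4 and Plin5 lie well below the diagonal, at 0.372 and 0.454 on the vertical axis.

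Cardiomyocytes with a UMI of the natriuretic peptide genes Nppa or Nppb were compared with those without inside each library, as a description. In TAC, 192 cells had one and 2206 had none, and 3 of 33 genes stood 1.5-fold lower and 0 higher in the cells that had one, against 9.98% and 7.68% of all genes. Slc27a1 had 191 CPM in the former and 343 in the latter, Eci2 had 29.7 and 49.3, and Lipe had 19.0 and 31.7. In Sham, with 386 and 2122 cells, Slc27a1 had 400.1 and 544 CPM and only Acot2, a sparse gene, passed the fold, with 5.10% of all genes lower and 3.99% higher. Pdk4 was alike in both kinds of cell, at 212 and 204 CPM in TAC and 346 and 348 in Sham. Cells with a natriuretic peptide UMI were the deeper ones, with medians of 6076 and 4846 UMIs in TAC, and the part of depth was not tested.

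The ratio moved with the base composition of the transcripts. Over all genes measured in cardiomyocytes the median log2 ratio was 0.13 in the quintile of genes with the lowest GC content (percentage of G and C in the longest transcript) and -0.14 in the quintile with the highest, and 3.503% and 13.1% of their genes were called lower. Of the 6 lower genes, Pnpla2, Dgat2, Slc27a1 and Plin5 were in the highest quintile, which held 10 of the 34 genes, Ucp3 was in the quintile below it and Pdk4 in the lowest but one. When each ratio was set against the median of its own GC quintile, a comparison added after the values were seen, Pnpla2, Pdk4 and Ucp3 stayed past 1.5-fold, and Esrra passed it. Slc27a1, Dgat2 and Plin5 moved to just inside it, at 0.696, 0.693 and 0.719. On this scale 4 of the 34 genes were called lower and 0 higher, against 6.26% and 12.4% of all genes. The median log2 ratio of the 34 genes was then -0.21. Over all genes the ratio also differed with gene span. In the quintile of shortest span 8.29% of genes were called lower and 22.2% higher, against 5.01% and 9.08% in the longest. The 3 quintiles of shortest span held 24 of the 34 genes and all 6 of the lower ones. The part of gene span in these ratios was not tested.

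**Figure D5:**
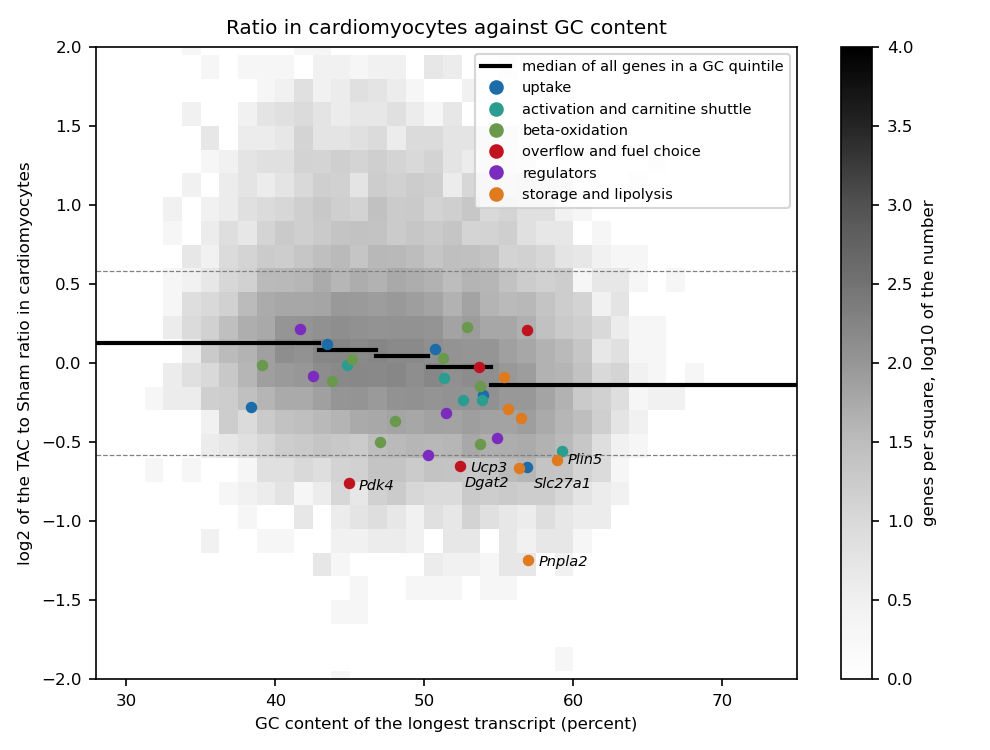
Log2 of the TAC to Sham ratio in cardiomyocytes against the GC content of the longest transcript in percent, with grey squares for the number of all genes (log10), black lines for the median of each GC quintile, coloured points for the 34 genes by role and dashed lines at 1.5-fold. The black lines step down from 0.13 to -0.14, and the named points lie below them.

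A wider list of 84 other genes of fatty acid metabolism was read in cardiomyocytes. Of these, 76 reached the minimum, 9 were called lower and 3 higher (6.69% and 12.9% of all genes), and the median log2 ratio was -0.22. The largest differences included other proteins of the lipid droplet. Plin4 had 280 CPM in Sham and 128 in TAC, a ratio of 0.457 [0.431, 0.484], and Plin3 had 99.3 and 51.8, a ratio of 0.522 [0.475, 0.573]. G0s2, whose product inhibits the lipase encoded by Pnpla2, had 35.7 and 79.5 CPM, a ratio of 2.23 [1.998, 2.49]. Enzyme and inhibitor thus lay in opposite directions. Abhd5, the coactivator of the same lipase, was read after the values were seen and had 23.4 and 19.97 CPM, a ratio of 0.852 [0.720, 1.01].

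Fitm1, a protein of lipid droplet formation, had a ratio of 1.72 [1.37, 2.16], and Slc27a3, a further member of the transport protein family, one of 1.68 [0.918, 3.14] from 19 and 31 UMIs. Bdh1, an enzyme of ketone body use, had 34.9 and 19.0 CPM, a ratio of 0.544 [0.465, 0.636], and Acot11, a thioesterase, had 120 and 71.0, a ratio of 0.593 [0.546, 0.643]. Lpin3, a phosphatase on the path to triglyceride, had 0.436 [0.277, 0.673], and Ucp2, a relative of Ucp3, had 0.472 [0.249, 0.860] from 37 and 17 UMIs. The genes named here are enzymes of ketone use, thioester cleavage and lipid storage as well as carriers.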

How the data were processed

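The deposited counts are UMIs of each gene in each barcode, made by the authors with Cell Ranger (7.1.0 in the labels and matrix headers; the paper names another version, and its 3-prime kit differs from the labels' V3) and not normalized. Genome build and intron counting are not given in the sources used here. The members and lists were chosen with earlier results of these data known.

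Scanpy 1.11.5 under Python 3.11.15 was used. Barcodes with fewer than 200 genes and Scrublet doublets (459 Sham and 479 TAC barcodes) were removed. Each library was clustered by itself (2000 variable genes, 30 components, 15 neighbours, resolution 1), leaving out the fatty acid and mitochondrial genes, and clusters were named from at least 3 markers. UMIs were summed by cell type and given per 1000000 (CPM). Intervals are exact (Poisson, conditional binomial, Clopper-Pearson). With 1 library a group there was no test. All 34 genes are described. Of the other fatty acid genes, up to 10 past 1.5-fold were named by size, and 1 that the rule named is not reported here. GC content and positions come from GENCODE M21, which held 94.1% of the identifiers. Other cell filters, clusterings, scalings, count minimums and folds were tried, with TMM factors from edgeR 4.0.16. The ratio and call rule were tested on simulated data.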

Additional observations from a re-analysis of the deposited data

Results flagged for a closer look

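Dgat2 was past 1.5-fold in opposite directions in different cell types. Its TAC to Sham ratio was 1.80 in fibroblasts and 0.631 in cardiomyocytes, and likewise 1.80 in fibroblasts against 0.488 in endothelial cells, with no interval that included 1. The endothelial levels, 13.5% and 10.5% of those in cardiomyocytes, were not above the range of the contractile genes, so they cannot be told apart from free cardiomyocyte RNA. The difference was not tested, because each group had 1 library. The fibroblast levels, 4.84% and 13.8% of those in cardiomyocytes, were not above that range either. The fibroblast ratio was 0.689 [0.377, 1.23] once the cells with an adipocyte marker UMI were left out.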

How the results depend on the processing

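No paired analysis was possible because there was 1 library a condition and no test. The number of genes called lower in TAC cardiomyocytes, 6, was 2 with types taken from the markers of single cells (Pdk4 and Pnpla2), 13 at the looser fold threshold tried (17.2% of all genes), 1 at a fold of 2 (1.29%), and, in comparisons added after the data were seen, 12 and 2 in the joint clusters led by Ptgds and by Pdzrn4. It was 8, with Mlycd and Esrra added, under TMM factors, with the median of all genes set to 1 and as a mean over cells. The number called higher was 0 throughout. The cardiomyocyte share of the UMIs of the 34 genes in Sham, 83.1%, was 76.2% with at least 500 genes per cell, 77.0% and 76.6% with at most 25% and 10% mitochondrial UMIs, 71.0% with doublets kept, 77.0% without shared barcodes, 76.5% at resolution 2 and 87.6% by own markers. In TAC, 80.7% became 81.2% with at least 500 genes, 74.1% with doublets kept and 83.7% by own markers. Of 476 ratios of single genes, 437 stayed inside their main interval and 39 did not. Without cells holding an adipocyte marker UMI, Dgat2 in fibroblasts moved from 1.80 to 0.689 [0.377, 1.23], an interval that included 1. In place of 1 gene, 0 were then called higher there. Genes with few UMIs, such as Angptl4 with 30 in Sham and 31 in TAC, are limited by depth.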
